A study of Mus musculus with 55 samples.

Results

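The comparison concerned CTCF-AID mouse embryonic stem (ES) cells 20 and 40 min after their release from mitotic arrest, with and without CTCF. It rested on 8 libraries, chosen by their labels, of 55 in the series and of 36 from CTCF-AID cells. CTCF-AID cells are 1 line derived from E14Tg2a (strain 129/Ola) that carries CTCF fused to an auxin-inducible degron, so that indole-3-acetic acid (IAA, an auxin) triggers the loss of the protein. The cells, grown in serum with LIF, were held for 4 h in 10 µM RO-3306, a CDK1 inhibitor, and then for 4 h in 50 ng/ml nocodazole, which blocks spindle assembly, and the mitotic cells were shaken off and re-seeded without nocodazole. In the +IAA arm 0.5 mM IAA was present for the last 2 h of the block and during the release, and the -IAA arm received none. Each arm had 2 replicates at 20 min and 2 at 40 min. The RNA was ribo-depleted, and the values are TPM, a transcript's share of the library corrected for its length, of the unspliced pre-mRNA of each of 10237 genes. The question was whether the first transcription after mitosis differs when CTCF is missing.

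CTCF is a zinc-finger protein that binds a long DNA motif, anchors chromatin loops together with cohesin and also acts near promoters. Most transcription stops in mitosis and chromosome loops are lost, and both are rebuilt as cells enter G1. In ES cells CTCF stays on many of its sites during mitosis, so that it is one of the factors studied as a mitotic bookmark. Pre-mRNA is short-lived, so its level follows recent transcription more closely than mRNA does.

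The 8 libraries differed in total level. The genes summed to between 18396 and 33117 TPM in the -IAA libraries and to between 17702 and 30914 TPM in the +IAA libraries, with the 40-min libraries above those of 20 min in every arm and replicate. The ES cell genes Pou5f1 (6.30 to 13.9 TPM) and Zfp42 (17.5 to 35.8 TPM) were read in all 8. Of 19 marker genes of other lineages 7 were in the table used here, and together they held 2.23 to 9.99 TPM in the -IAA arm and 1.84 to 10.7 TPM in the +IAA arm. Ctcf pre-mRNA (chromosome 8, 105636568 to 105682922, + strand) stood at 6.61, 5.90, 6.81 and 6.82 TPM without IAA and at 5.98, 6.02, 6.96 and 7.18 TPM with it, in the order 20 min replicates 1 and 2, 40 min replicates 1 and 2. The arms overlapped at 20 min, and the fitted difference was 0.00 (log2, SE 0.04, limma adjusted p = 0.972). IAA acts on the protein, so this RNA level is no check of the depletion. The study's methods call the replicates independent and give every time and arm a dish of its own. Whether libraries with the same replicate number came from 1 batch of mitotic cells is not given in the sources used here. TPM keep no read counts, so the depth behind each value is unknown.

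The clearest common feature was a slightly lower level of most genes in the +IAA library of each pair. At 20 min the median gene differed by -0.097 in replicate 1 and by -0.025 in replicate 2, on the scale of log2(TPM + 1), and 86.1% and 65.6% of genes were lower with IAA. At 40 min the medians were -0.069 and -0.028, with 77.4% and 65.6% of genes lower. The mean of the 4 medians was -0.055 ± 0.034 (SD, n = 4). All 4 pairs lay below 0, for which an exact two-sided sign-flip test gives p = 0.13, the smallest it can give. The medians lay together by replicate number, and this test treats the 4 pairs as independent, which pairs of 1 replicate number may not be. In the 14 pairs of the other stages the medians averaged -0.0074 ± 0.034 (SD, n = 14) and ranged from -0.073 to 0.048, with 8 of 14 below 0. Within replicate 1 the early medians averaged -0.083 against -0.0088 in 6 pairs of other stages, and within replicate 2 they averaged -0.026 against 0.010 in 4 pairs. An exact two-sided permutation test that exchanged stages only within a replicate number, chosen after the data were seen, gave p = 0.033. It rests on 2 replicates.

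The totals of the libraries differed in the same direction. Replicate 1 at 20 min had the lowest +IAA total relative to its partner (21081 against 23827 TPM), and the other pairs stood at 17702 against 18396, 30914 against 33117 and 27204 against 27970 TPM. The totals are sums over the same genes, so that scaling to equal totals takes out a shift shared by most genes by construction, and the mean of the medians was then -0.0049. Low TPM came in whole multiples of a step that differed between libraries, for a reason the sources do not name (2.18 to 2.45 times 0.01 TPM in the -IAA arm and 2.19 to 2.24 times in the +IAA arm). Whether the values were rescaled after TPM were computed is not known, so they may not be plain shares of a library. After division by the step 2 of 4 pairs were below 0, with a mean of -0.032 and an exact permutation p = 0.21. With a constant of 0.1 TPM in place of 1 the mean was -0.092. A lower output of all genes with IAA and a difference in how the libraries were scaled cannot be told apart here, so the genes below are given both as deposited and after each library was centred on its median.

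**Figure D1:**
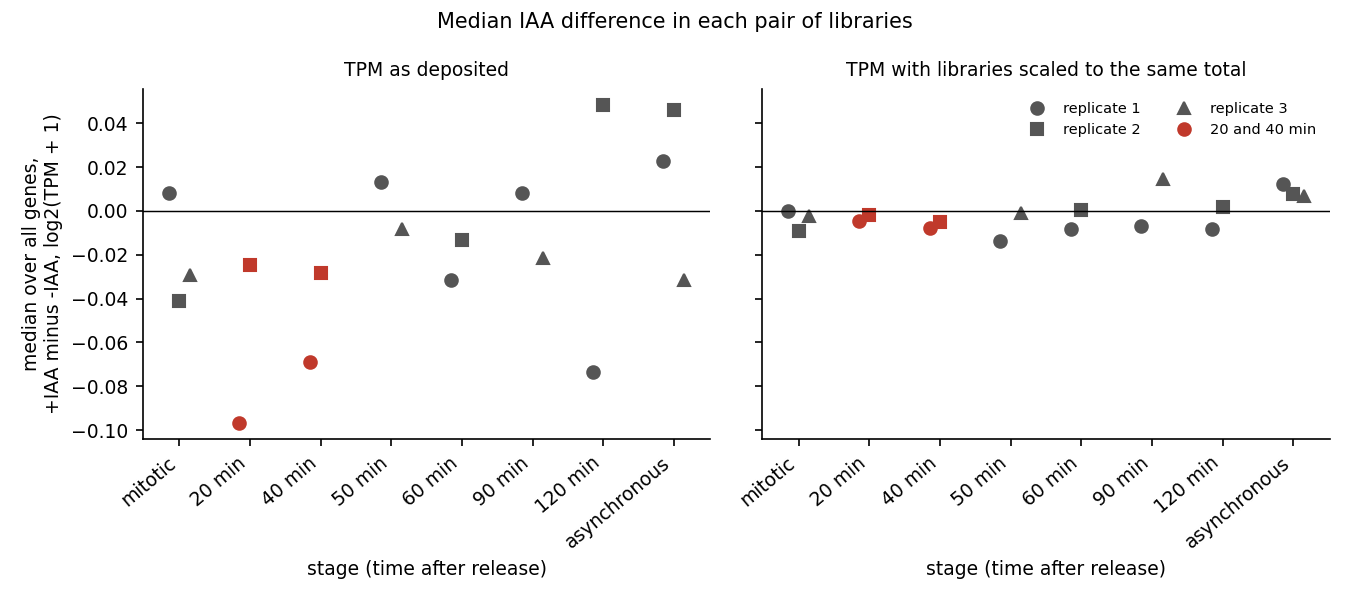
Median difference over 10237 genes between the +IAA and the -IAA library of each pair (y axis, log2(TPM + 1); 1 point per pair; x axis, stage), with TPM as deposited and after scaling to equal totals. As deposited, the 4 pairs at 20 and 40 min lie between -0.097 and -0.025, and after scaling they lie close to 0.

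A small set of genes was called, first with this shift left in and then after centring. Over 20 and 40 min, 100 genes were called (0.977% of 10237), 87 lower (0.85%) and 13 higher (0.127%) with IAA, a call being a limma adjusted p under 0.1 and a mean log2 difference beyond 0.2. After centring the split was 28 lower (0.274%) and 22 higher (0.215%). Of these, 28 lower and 12 higher genes were called on both scales, and none was called in opposite directions. The other 59 lower genes and 1 higher gene were called only without centring, and 10 further higher genes only after it. The changes were small, with a median of -0.26 among the 87 (a ratio of 0.838 in TPM + 1) and 0.29 among the 13 (a ratio of 1.22). Of the 87 genes 82 were lower in 4 of 4 pairs, as were 36% of all genes, and of the 13 genes 11 were higher in 4 of 4, as were 1.54% of all genes. After centring, 27 of 28 and 22 of 22 had 1 sign in all pairs, against 11.5% of all genes on the lower and 10.4% on the higher side. The calls were made on these same 4 pairs, which favours 1 sign in all of them, so this agreement is no separate support.

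These calls rest on the spread estimated over all 36 CTCF-AID libraries, with each pair of libraries as a block. With only the 8 libraries, limma called 0 genes without centring (1766 lower and 101 higher at an unadjusted p under 0.05) and 7 lower and 8 higher after centring. Without the pairing it called 0 (81 and 19 at an unadjusted p under 0.05), and 4 and 5 after centring. Without replicate 1 it called 0 lower and 2 higher genes and without replicate 2 626 and 14, and after centring 3 lower genes without replicate 1 and 8 without replicate 2. The median sizes of the named genes moved less than the calls. These genes were chosen by calls on all 4 pairs, which favours sizes that hold, so this is no separate check. In the 16 lower genes called and named by the rule the median difference was -0.37 in all 4 pairs, -0.30 without replicate 1 and -0.46 without replicate 2, and in the 8 higher genes it was 0.33, 0.39 and 0.28. Single genes moved unevenly: without replicate 1 Lrrc59 went from -0.43 to -0.40 and Rpl36 from -0.31 to -0.11. Without replicate 2 Mrps16 went from 0.29 to 0.25 and Prkag1 from 0.23 to 0.10. Without the pairing, or with only the 8 libraries, the differences are the same by construction and only their errors change. Of the 40 genes called on both scales, the number called depended on the fit and the scale. Without centring 0 were called without the pairing, 0 with only the 8 libraries, 2 without replicate 1 and 32 without replicate 2. After centring these numbers were 9, 14, 6 and 8. Without centring, 12 were called after division by the step and 39 with libraries scaled to the same total. The fit also treats the 20- and 40-min pairs of a replicate number as independent. With a replicate left out, each arm has a single library per early time, and the other stages alone give the spread.

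In each sentence on single genes the TPM are given for replicates 1 and 2 in this order. Lrrc59, an endoplasmic reticulum membrane protein (chromosome 11, 94629767 to 94645216, + strand), stood at 4.78 and 3.28 TPM without IAA against 3.66 and 2.58 TPM with it at 20 min, and at 5.32 and 4.54 against 3.07 and 2.83 TPM at 40 min. Polr2c, a subunit of RNA polymerase II (chromosome 8, 94857450 to 94873535, + strand), read 2.18 and 1.43 against 1.36 and 1.08 TPM at 20 min, and 3.67 and 2.70 against 2.00 and 1.81 TPM at 40 min. Rbm45, an RNA-binding protein (chromosome 2, 76369984 to 76383768, + strand), read 1.88 and 1.12 against 1.27 and 0.83 TPM at 20 min, and 3.16 and 2.11 against 1.85 and 1.37 TPM at 40 min. In all 3 genes each +IAA library was below its partner, and the arms did not overlap at 40 min. At 20 min they overlapped in Lrrc59 and Rbm45. The mean differences were -0.43 (SE 0.05, limma adjusted p = 0.00164) for Lrrc59, -0.42 (SE 0.05, adjusted p = 0.00164) for Polr2c and -0.37 (SE 0.04, adjusted p = 0.000741) for Rbm45, and after centring they were -0.38, -0.36 and -0.32.

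The splicing factor Rbm17 (chromosome 2, 11585437 to 11604153, - strand) read 3.93 and 2.53 TPM without IAA against 3.48 and 2.00 TPM with it at 20 min, and 4.69 and 2.43 against 2.67 and 1.66 TPM at 40 min. Psmd6, a subunit of the proteasome lid (chromosome 14, 14112174 to 14120984, - strand), read 2.58 and 2.04 against 2.19 and 1.66 TPM, and then 3.45 and 2.80 against 1.91 and 1.81 TPM. In Rbm17 the replicates differed by more than the arms did, so that the arms overlapped at both times although every pair had the lower value with IAA. Ndufaf4, an assembly factor of respiratory complex I (chromosome 4, 24898083 to 24905001, + strand), read 1.44 and 0.94 against 0.77 and 0.67 TPM, and then 2.99 and 2.11 against 1.78 and 1.30 TPM. Cab39, a scaffold of the kinase LKB1, read 2.38 and 2.04 against 1.75 and 1.57 TPM, and then 3.01 and 2.50 against 1.80 and 1.61 TPM. Arl8b, a lysosomal GTPase, read 2.44 and 1.80 against 1.80 and 1.35 TPM, and then 3.71 and 2.90 against 2.25 and 2.05 TPM. The arms were apart at both times in Ndufaf4 and Cab39, and at 40 min alone in Psmd6 and Arl8b. All 5 genes fell, with differences from -0.34 (Rbm17) to -0.41 (Ndufaf4) and limma adjusted p from 0.00259 to 0.0119, and all 5 were also called after centring.

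Some of the lower calls were less firm. Rps12, a ribosomal protein of the small subunit (chromosome 10, 23785183 to 23787275, - strand), fell from 5.81 and 3.09 to 2.23 and 1.95 TPM at 20 min and from 15.6 and 13.8 to 10.8 and 12.4 TPM at 40 min. Its mean difference was -0.55 (SE 0.11, limma adjusted p = 0.0249, and 0.0632 after centring). Rps12 hosts small nucleolar RNAs and has near-identical copies elsewhere, so its reads could have been split between loci. Hist1h2bq, a histone H2B gene, read 27.7 and 23.0 against 18.2 and 20.6 TPM, and then 52.4 and 19.6 against 32.5 and 12.1 TPM. It was called without centring (-0.52, SE 0.12, limma adjusted p = 0.0578) and not after it (-0.46, adjusted p = 0.138). The arms overlapped at 40 min, and this gene too has close copies. Lipt2, an enzyme of lipoate synthesis, was at 0.72 and 0.54 against 0.28 and 0.25 TPM, and then at 2.84 and 1.69 against 1.33 and 1.21 TPM. Its call (-0.43, limma adjusted p = 0.0855) was lost on centring, where the difference was -0.37. Arf5, a small GTPase of the Golgi, was at 0.76 and 0.63 against 0.37 and 0.47 TPM, and then at 2.20 and 1.67 against 1.11 and 1.24 TPM (-0.34, limma adjusted p = 0.0522, and 0.0774 after centring).

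Of the higher genes, 8 met the naming rule (called, higher in 4 of 4 pairs and at a mean of at least 1 TPM). Gys1, glycogen synthase of muscle and other tissues (chromosome 7, 45434844 to 45456619, + strand), rose from 0.74 and 0.56 to 1.01 and 0.92 TPM at 20 min and from 1.20 and 0.83 to 2.05 and 1.94 TPM at 40 min. Lsm11, a component of the U7 snRNP that processes histone mRNA (chromosome 11, 45928269 to 45944935, - strand), rose from 1.09 and 0.84 to 1.25 and 1.37 TPM and then from 2.49 and 1.84 to 4.00 and 3.05 TPM. Mrps16, a mitochondrial ribosomal protein (chromosome 14, 20389304 to 20393634, - strand), rose from 0.76 and 0.35 to 1.03 and 0.63 TPM and then from 2.42 and 1.47 to 3.22 and 2.19 TPM. The arms were apart at both times for Gys1 and Lsm11, and in Mrps16 they overlapped at both. The mean differences were 0.41 (SE 0.07, limma adjusted p = 0.0119) for Gys1, 0.37 (SE 0.05, adjusted p = 0.00433) for Lsm11 and 0.29 (SE 0.04, adjusted p = 0.00583) for Mrps16, and all 3 were called after centring.

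Il17c, a cytokine gene (chromosome 8, 122422020 to 122423639, + strand), read 1.03 and 0.96 TPM without IAA against 1.60 and 1.39 TPM with it, and then 0.74 and 0.39 against 1.18 and 1.15 TPM (0.40, SE 0.08, limma adjusted p = 0.0397). It overlaps a readthrough transcript on its own strand, Gm20388, and the reads of both cannot be told apart. Eef2kmt, a methyltransferase of elongation factor 2, read 1.35 and 1.57 against 1.60 and 2.00 TPM, and then 2.31 and 2.06 against 2.93 and 2.92 TPM. In both genes the arms were apart at each time. Prkag1, a regulatory subunit of AMPK, read 1.33 and 1.01 against 1.38 and 1.35 TPM, and then 2.73 and 2.01 against 3.20 and 3.20 TPM. Vgf, a neuropeptide precursor, was level at 20 min (0.48 and 0.63 against 0.48 and 0.72 TPM) and apart at 40 min (2.16 and 1.94 against 2.80 and 3.49 TPM). Eef2kmt, Prkag1 and Vgf differed by 0.23 to 0.24, with limma adjusted p from 0.0343 to 0.0614, and by 0.29 to 0.30 after centring.

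The largest fitted difference belonged to Zfp281, a zinc-finger transcription factor of ES cells (chromosome 1, 136624901 to 136630053, + strand), and it was also among the least even. It stood at 0.48 TPM in replicate 1 and was listed at 0 TPM in replicate 2 without IAA at 20 min, against 1.51 and 1.48 TPM with it. At 40 min it read 3.19 and 0.15 against 3.20 and 1.70 TPM. The 2 -IAA libraries of replicate 2 were thus the lowest of the 8, and at 40 min the 2 arms of replicate 1 were level. The difference of 0.83 (SE 0.22, limma adjusted p = 0.0969) was 0.89 after centring and was not called there (adjusted p = 0.128).

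**Figure D2:**
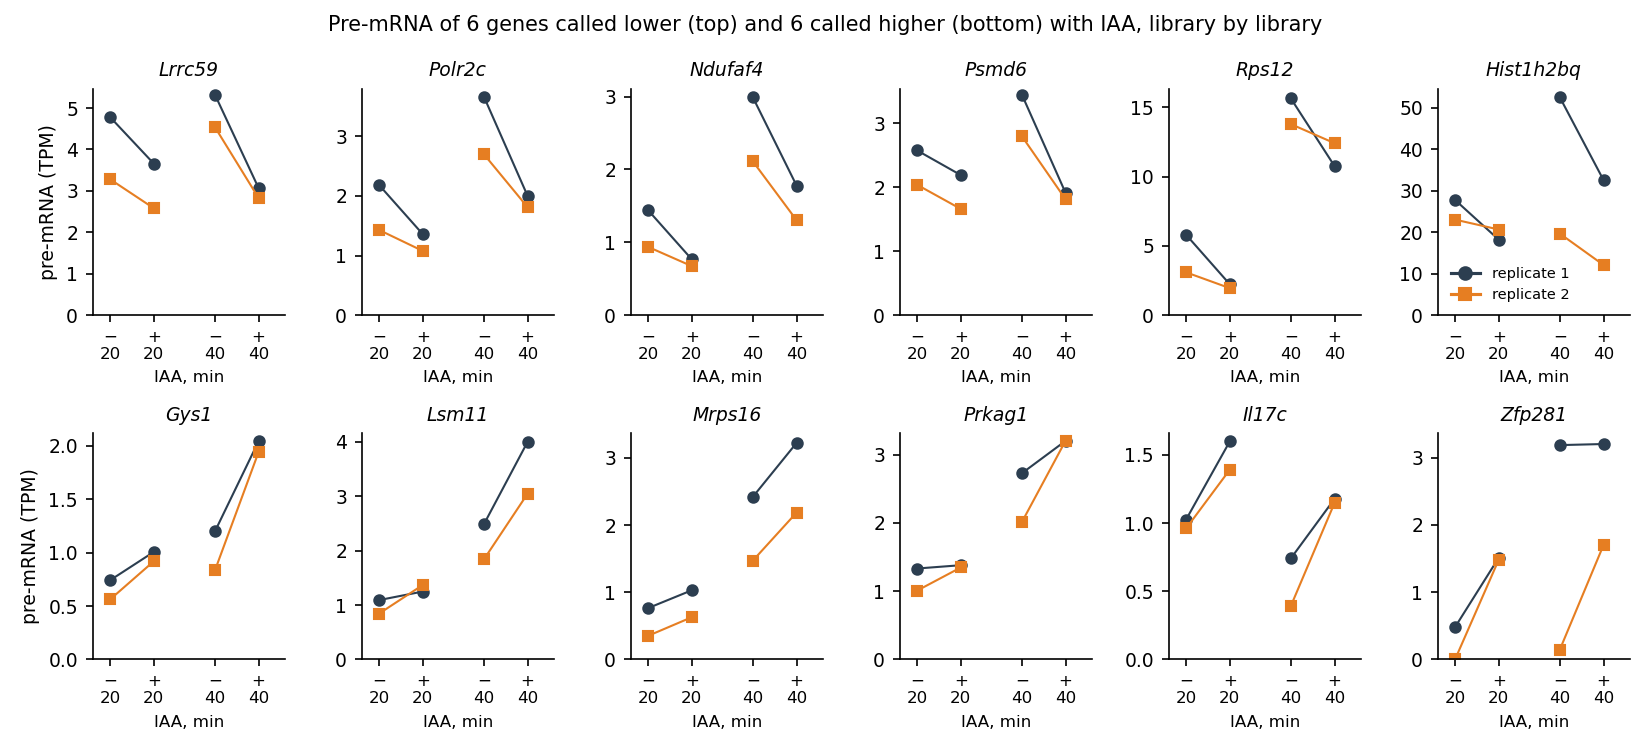
Pre-mRNA level (y axis, TPM) of named genes in each of the 8 libraries at 20 and 40 min (x axis), with a line joining the -IAA and the +IAA library of a pair and colours for the 2 replicates. In Polr2c every +IAA point lies below its partner, and in Gys1 every one lies above.

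Outside the naming rule, chosen after their values were seen, 4 further called genes are given. Vps37d, a subunit of the sorting complex ESCRT-I (chromosome 5, 135072900 to 135078266, - strand), averaged under 1 TPM and rose from 0.20 and 0.23 to 0.24 and 0.56 TPM at 20 min and from 0.63 and 0.79 to 1.80 and 2.21 TPM at 40 min (0.50, SE 0.06, limma adjusted p = 0.00164). Agfg1, an FG-repeat protein with an ArfGAP domain (chromosome 1, 82839483 to 82901182, + strand), fell from 6.07 and 5.34 to 5.06 and 4.44 TPM and from 6.72 and 5.86 to 5.0 and 4.68 TPM (-0.27, SE 0.04, limma adjusted p = 0.00886). Both were called after centring, and their arms were apart at both times. Mrps2, a mitochondrial ribosomal protein, had the lowest mean difference of the called genes (-0.59, limma adjusted p = 0.021) at a low level, 0.96 and 0.16 against 0 and 0.07 TPM and then 2.01 and 1.20 against 0.93 and 0.42 TPM. Rhbdl1, a rhomboid-family gene, stayed at or below 1.02 TPM in all 8 libraries (0.44, limma adjusted p = 0.0865).

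Because CTCF binds near promoters, the promoters of the called genes were searched for the CTCF core motif. The promoters came from RefSeq (GRCm38.p6, from 250 bases before to 50 after each gene start), and 8251 of the 10237 genes matched one. The core motif was searched by name, as 12 positions of which 4 allowed 2 bases, on both strands. It was found in 0.80% of the matched genes and in 0.557% of all 32851 promoters of the reference table. Of the 87 lower genes 68 matched and 5 held it (7.35%: Agfg1, Gaa, Ndufaf4, Scap and Slc35b2), and of the 13 higher genes 11 matched and 2 held it (18.2%: Lsm11 and Vps37d). After centring it was 2 of 22 matched lower genes and 3 of 18 matched higher genes, the third being Nabp2. The 4 promoters shown are those of the genes called on both scales that hold a match, written 5′ to 3′ on the strand of the gene with the match in capitals. In Ndufaf4 (chr4:24897833-24898132, + strand) and Agfg1 (chr1:82839210-82839509, + strand), both lower with IAA, the match reads along the gene, at positions -56 to -45 and -82 to -71 from the start.
Ndufaf4: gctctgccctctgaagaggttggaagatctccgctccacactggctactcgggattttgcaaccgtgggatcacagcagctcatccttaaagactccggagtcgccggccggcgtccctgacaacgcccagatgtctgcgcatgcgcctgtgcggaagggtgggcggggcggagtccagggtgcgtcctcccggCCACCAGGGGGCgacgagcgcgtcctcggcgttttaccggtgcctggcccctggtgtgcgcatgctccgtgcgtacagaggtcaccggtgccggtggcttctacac
Agfg1: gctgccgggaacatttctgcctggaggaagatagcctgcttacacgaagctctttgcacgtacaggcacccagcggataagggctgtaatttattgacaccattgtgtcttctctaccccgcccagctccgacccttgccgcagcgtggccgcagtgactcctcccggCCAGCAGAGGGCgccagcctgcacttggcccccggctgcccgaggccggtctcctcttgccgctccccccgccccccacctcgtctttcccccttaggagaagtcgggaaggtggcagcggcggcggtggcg
In Lsm11 (chr11:45944886-45945185, - strand) and Vps37d (chr5:135078217-135078516, - strand), both higher with IAA, it reads on the opposite strand, at positions -103 to -92 and -88 to -77.
Lsm11: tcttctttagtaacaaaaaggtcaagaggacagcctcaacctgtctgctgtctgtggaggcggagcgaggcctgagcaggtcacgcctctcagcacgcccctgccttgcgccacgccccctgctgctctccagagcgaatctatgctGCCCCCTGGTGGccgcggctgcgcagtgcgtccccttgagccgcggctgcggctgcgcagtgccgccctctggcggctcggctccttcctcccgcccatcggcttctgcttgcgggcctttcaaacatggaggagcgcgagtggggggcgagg
Vps37d: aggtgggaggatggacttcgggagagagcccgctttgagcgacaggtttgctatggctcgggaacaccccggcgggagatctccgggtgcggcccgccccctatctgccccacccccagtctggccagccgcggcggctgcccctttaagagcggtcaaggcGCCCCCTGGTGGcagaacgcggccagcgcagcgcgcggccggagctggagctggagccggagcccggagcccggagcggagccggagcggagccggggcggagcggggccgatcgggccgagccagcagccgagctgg
A match describes these letters only, and CTCF binding there was not analysed here.

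The same search gave 12.3% (18 of 146) of the matched genes lower at 50 to 60 min and 10.6% (19 of 180) of those lower in asynchronous cells, against 5.56% (4 of 72) and 2.19% (3 of 137) of the higher ones. Ndufaf4, Agfg1 and Lsm11 were called in the same direction in both of these comparisons. Vps37d was called higher at 50 to 60 min, and in asynchronous cells its difference was 0.07 (limma adjusted p = 0.8).

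**Figure D3:**
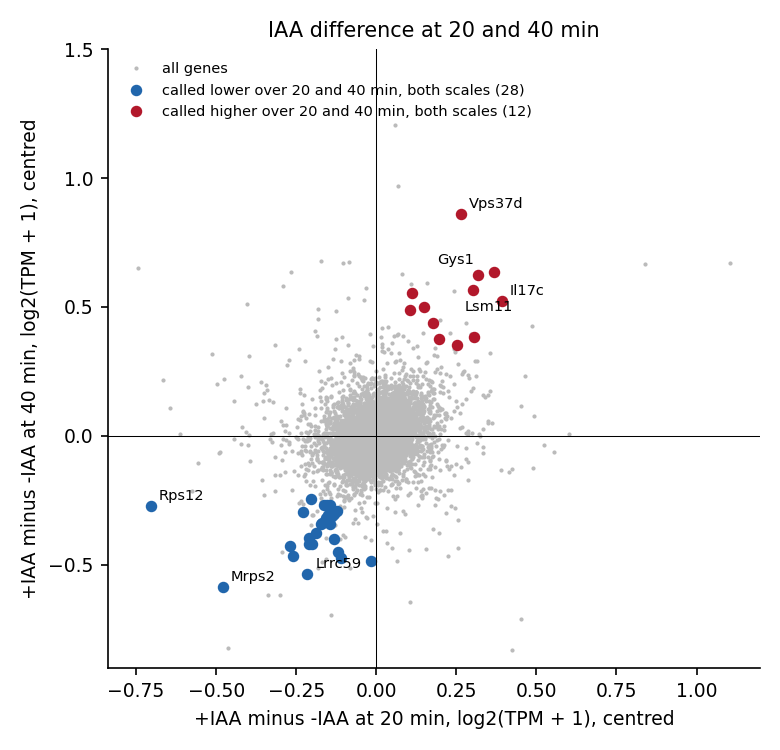
Difference between arms at 20 min (x axis) and at 40 min (y axis) for each of 10237 genes after centring, in log2(TPM + 1), with the 28 lower and 12 higher genes called on both scales in colour. Most of the called genes lie farther from 0 at 40 min than at 20 min.

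Most called genes differed more at 40 min than at 20 min, without a tested difference between the times. The median of the 87 lower genes was -0.21 at 20 min and -0.33 at 40 min, with the 40-min value larger in size in 70 of 87. The median of the 13 higher genes was 0.20 and 0.47, with the 40-min value larger in 12 of 13. Over all genes the 40-min value was larger in 4538 of 10237. After centring it was larger in 27 of 28 lower and 19 of 22 higher genes, against 5418 of 10237. Taken alone, limma called 0 genes at 20 min (1081 lower and 35 higher at an unadjusted p under 0.05) and 76 lower (0.742%) and 13 higher (0.127%) genes at 40 min. After centring it called 0 at 20 min (295 and 278 at an unadjusted p under 0.05) and 54 lower (0.527%) and 24 higher (0.234%) genes at 40 min. The call of 0 at 20 min did not hold in all settings: 12 lower genes were called with a constant of 0.1 TPM, and 3 lower and 5 higher with libraries scaled to the same total. With a replicate left out, each arm has a single library per early time, and the other stages alone give the spread. At 40 min without replicate 1 the counts were 0 lower and 3 higher, and without replicate 2 they were 16 and 3. A test of the 40-min against the 20-min difference called 0 genes (288 at an unadjusted p under 0.05), also after centring (348) and in every other setting run.

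The pairs were most alike within replicate 1, and those of replicate 2 were about as alike as the 2 pairs at 40 min. Over the 10237 genes, the differences correlated at r = 0.24 between 20 and 40 min of replicate 1 and at r = 0.17 between 20 and 40 min of replicate 2. Between replicates they correlated at r = 0.063 at 20 min and at r = 0.16 at 40 min. These are correlations over genes of single pairs, given as a description, and the genes are not independent.

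The early differences were next set beside those of the other stages, which come from other libraries of the same cells. The asynchronous cells received neither RO-3306 nor nocodazole, and their +IAA arm had IAA for 4 h, against 2 h before the release and 20 or 40 min after it in the early libraries, so that stage, drugs and time in IAA cannot be told apart there. In mitotic cells, with 3 replicates per arm, limma called 0 genes (436 at an unadjusted p under 0.05). At 50 to 60 min it called 184 lower (1.8%) and 92 higher (0.899%), and in asynchronous cells 403 genes (3.94%), 227 lower (2.22%) and 176 higher (1.72%). Of the 87 genes lower at 20 to 40 min, 51 were also called lower at 50 to 60 min and 47 in asynchronous cells, and 80 lay below 0 in mitotic cells, as did 62.2% of all genes. Of the 13 higher genes 10 were called higher at 50 to 60 min and 9 in asynchronous cells. At 50 to 60 min 1 gene of each set was called in the opposite direction, Crebzf of the lower ones (0.29, limma adjusted p = 0.00704) and Rhbdl1 of the higher ones (-0.37, limma adjusted p = 0.0974). After centring, 25 of 28 lower and 17 of 22 higher genes were called in the same direction at 50 to 60 min, against 1.74% of all genes called lower and 1.19% called higher there, and Rhbdl1 was called in the opposite one. All 28 lower genes lay below 0 in mitotic cells, as did 48.8% of all genes, and none was called there. The test of the early difference against that in mitotic cells called 0 of all genes (397 at an unadjusted p under 0.05).

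**Figure D4:**
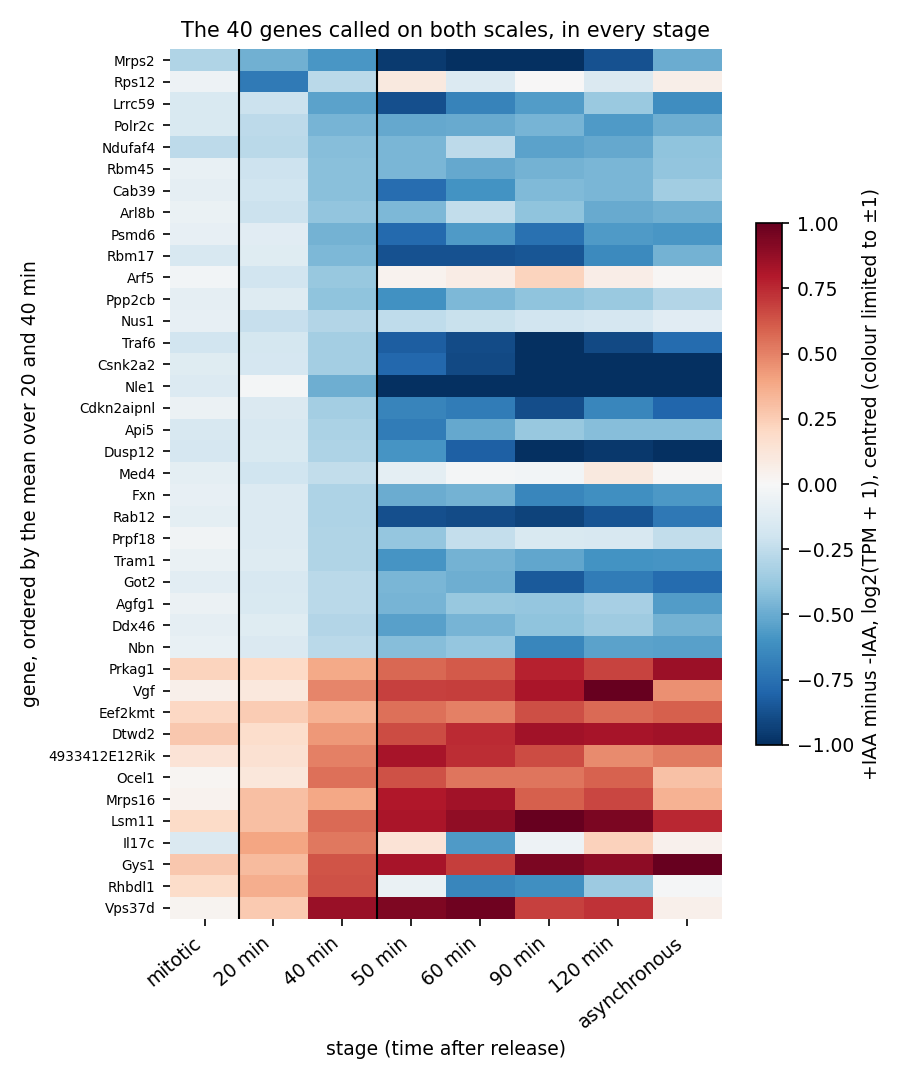
Difference between arms (colour, log2(TPM + 1), after centring) at each stage (columns) for the 40 genes called over 20 and 40 min on both scales (1 gene per line). Most genes keep their direction from 40 min on and have a larger difference later, while Rps12 and Med4 have smaller differences of both signs later, Arf5 lies at 0.22 at 90 min, and Il17c and Rhbdl1 are negative at 60 min.

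Single genes followed several courses. Rbm17 differed by -0.17 in mitotic cells, by -0.34 over 20 and 40 min and by -0.88 at 50 to 60 min, and Lrrc59 by -0.17, -0.43 and -0.78. Mrps16 went from 0.02 to 0.29 and 0.81, and Lsm11 from 0.17 to 0.37 and 0.84. Polr2c, Ndufaf4 and Arl8b differed about as much at 50 to 60 min (-0.52, -0.37 and -0.36) as before. Rps12, Lipt2 and Arf5 were near 0 at 50 to 60 min (-0.03, -0.11 and 0.04) and in asynchronous cells (0.07, -0.01 and 0.03). Il17c was higher early and stood at -0.23 at 50 to 60 min (limma adjusted p = 0.187), with a tested difference between the stages (adjusted p = 0.0292). Gys1 and Prkag1 were highest in asynchronous cells, at 1.10 and 0.87.

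Tested as a difference between stages, 20 of the 87 lower genes had a larger effect at 50 to 60 min, 7 had a smaller or opposite one, and 60 did not differ by limma at an adjusted p under 0.1. The 7 were Arl4d, Cebpg, Crebzf, Dancr, Gpsm3, Psme1 and Ric8a. Of the 13 higher genes 7 had a larger effect at 50 to 60 min and 2 (Il17c and Rhbdl1) a smaller or opposite one. After centring 17 of 28 lower and 8 of 22 higher genes had a larger effect at 50 to 60 min, and 0 and 3 a smaller or opposite one. Over all genes this test called 123 genes (1.2%), and 131 (1.28%) after centring. The test against asynchronous cells called 354 (3.46%), and 325 (3.17%) after centring. The called genes were chosen by their early values, which favours a large early difference.

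In the reverse choice the asynchronous difference comes from other libraries, while the spread behind its calls was estimated over all 36, the 8 early ones included. The 407 genes called in asynchronous cells after centring (3.98%), 260 lower (2.54%) and 147 higher (1.44%), were followed back through the release. In mitotic cells and at 20, 40, 50, 60, 90 and 120 min the lower genes had medians of -0.060, -0.042, -0.085, -0.194, -0.210, -0.314 and -0.263. The higher genes had medians of 0.060, 0.060, 0.085, 0.122, 0.136, 0.194 and 0.222 at the same stages. The median of all genes was between 0.0015 and 0.0069 over the first 3 of these. At 20 min 192 of the 260 (73.8%) lay below 0, against 45.1% of all genes, and 123 of the 147 (83.7%) lay above 0, against 54.9%. At 40 min these were 222 (85.4% against 49.1%) and 120 (81.6% against 50.9%), and 46 and 15 of them were called, against 0.527% of all genes called lower and 0.234% called higher. Without centring, the 227 genes lower in asynchronous cells had a median of -0.11 at 20 min (95.2% below 0 against 86.1% of all genes) and of -0.14 at 40 min (93.8% against 77.2%). The 176 higher ones had a median of -0.0069 at 20 min (46.0% above 0 against 13.9%) and of 0.033 at 40 min (65.3% against 22.8%).

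Replicate 1 at 20 min differed from the other early pairs in this respect. There the 260 lower genes had a median of -0.0058 and 53.5% lay below 0, against 40.6% of all genes. In replicate 2 at 20 min the median was -0.075 (81.2% against 55.4%), and at 40 min it was -0.076 (70.8% against 42.1%) and -0.12 (85.8% against 60.6%). The 147 higher genes had medians of 0.071 and 0.053 at 20 min and of 0.12 and 0.072 at 40 min. At 20 min 76.2% and 82.3% of them lay above 0, against 59.3% and 44.6% of all genes. At 40 min these shares were 81.0% and 76.2%, against 57.8% and 39.3%. Genes called lower at 50 to 60 min numbered 178 (1.74% of all genes). At 20 min 143 of them (80.3%) lay below 0, against 45.1% of all genes, and at 40 min 172 (96.6%), against 49.1%. Of the 122 higher ones 100 (82.0%) and 114 (93.4%) lay above 0, against 54.9% and 50.9%.

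**Figure D5:**
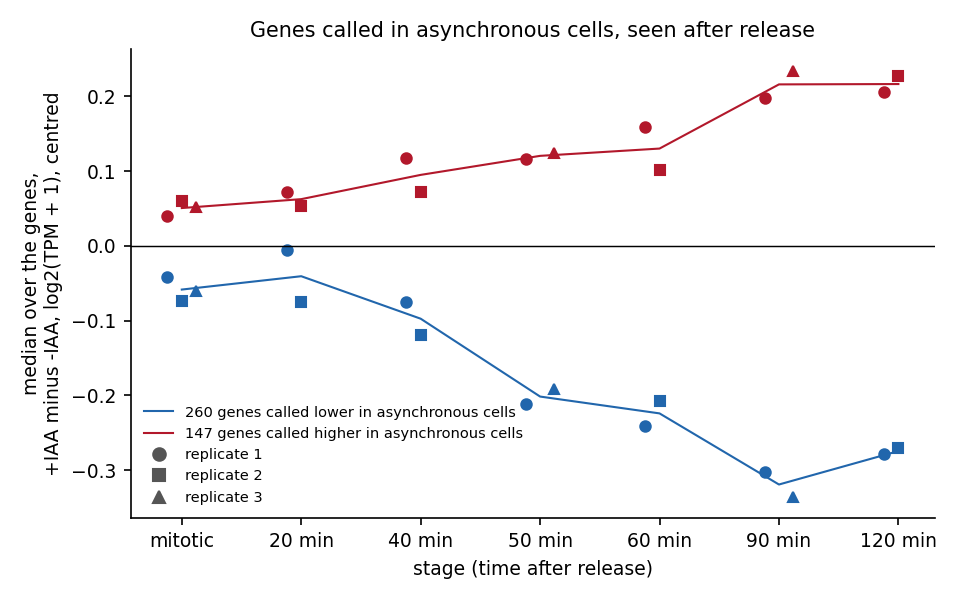
Median centred difference between arms (y axis, log2(TPM + 1)) of the 260 genes lower and the 147 genes higher in asynchronous cells, 1 point per pair of libraries at each stage (x axis), with a line through the mean of the pairs. The 2 sets lie on opposite sides of 0 in every pair, and the 20-min replicate 1 pair lies closest to 0 for the lower set.

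Without centring, called genes were found in the lists of G1 and S phase entry, ribosomal proteins and replication-dependent histones. All genes had a median of -0.054 (0.0044 after centring), and 0.85% of all genes were called lower (0.274% after centring). Calls in the lists are those over both times. At 40 min alone Saal1 and the ribosomal protein gene Rpl5 were called without centring, and Saal1, Carm1 and Rpl24 after it. Of 15 listed genes of Ctcf and cohesin, which form loops together, none was called (median -0.081, and -0.022 after centring), nor was any of 7 condensin genes (-0.082 and -0.023). The 22 naive and core pluripotency genes had a median of -0.059 and none was called. Nanog, the pluripotency factor, had the lowest adjusted p of the list, at 6.13 and 5.27 against 4.84 and 4.74 TPM at 20 min and 7.77 and 7.85 against 6.74 and 6.72 TPM at 40 min. Its arms were apart at both times, and the difference of -0.20 had a limma adjusted p = 0.0757 (0.139 after centring), just short of the size required. Dppa5a, an RNA-binding protein of pluripotent cells, had the largest difference, -0.31 (limma adjusted p = 0.132, and 0.366 after centring). It read 8.95 and 3.26 against 5.67 and 3.21 TPM at 20 min, and 19.5 and 10.4 against 16.6 and 7.58 TPM at 40 min. Esrrb differed by -0.10, Pou5f1 by -0.07, Klf4 by -0.02 and Zfp42 by -0.04.

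Of 30 genes of G1 and S phase entry (median -0.084), Cdk4 and Cdc25a were called lower (6.67%), and neither was called after centring. They differed by -0.23 and -0.20, and after centring by -0.18 and -0.14. Cdk4, the cyclin D kinase, read 3.73 and 2.55 against 2.61 and 2.06 TPM at 20 min and 8.31 and 7.73 against 6.85 and 7.25 TPM at 40 min. Cdc25a, a phosphatase that activates CDKs, read 5.06 and 3.26 against 3.88 and 2.96 TPM and then 9.01 and 6.94 against 7.34 and 6.32 TPM. In Cdc25a the arms overlapped at both times. Of 80 genes in the ribosomal protein list (median -0.057), Rps12, Rpl36 and Rps26 were called lower (3.75%), and Rps12 alone after centring (1.25%). Rpl36 read 14.1 and 11.2 against 10.0 and 10.7 TPM and then 21.5 and 15.5 against 14.3 and 13.8 TPM (-0.31, limma adjusted p = 0.0855). Rps26 read 6.13 and 5.25 against 4.97 and 3.57 TPM and then 9.03 and 6.94 against 6.87 and 6.78 TPM (-0.27, limma adjusted p = 0.0969). After centring the differences of Rpl36 and Rps26 were -0.25 and -0.21. Both genes have many processed copies in the genome, so their reads are uncertain. The 5 replication-dependent histone genes had the lowest median of the lists (-0.26, and -0.20 after centring). Of these Hist1h2bq was called without centring (1 of 5), and Hist1h2bc (-0.31), Hist1h2br (-0.26), Hist1h2bp (-0.12) and Hist1h2be (-0.05) were not.

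No gene was called in the lists of immediate early genes (16 listed, median -0.030), mitotic spindle and exit genes (24, -0.049), p53 targets (16, -0.072), imprinted genes (13, -0.036), Myc network genes (13, -0.048), heat shock chaperones (16, -0.047) or integrated stress response genes (14, -0.030). The same held for 4 targets of the aryl hydrocarbon receptor (-0.059), which some indoles activate, for 2 clustered protocadherins (-0.015), a family regulated by CTCF, and for the 7 markers of other lineages (-0.012). The 2 protocadherins averaged only 0.31 and 0.79 TPM. Of all genes 0.977% were called, so 0 calls in lists this short, like those of cohesin and condensin above, do not set them apart. Of 5 example responders to CTCF loss, which were picked on these same samples and so give no independent evidence, Carm1 was called higher over both times after centring and the others were not called over both times on either scale. Carm1, an arginine methyltransferase, read 3.58 and 3.49 against 3.53 and 4.15 TPM at 20 min and 3.80 and 4.00 against 4.49 and 5.08 TPM at 40 min (0.16, limma adjusted p = 0.12, and 0.22 with an adjusted p = 0.00908 after centring). Saal1 stood at 0.70 and 0.61 against 0.61 and 0.47 TPM and then at 0.83 and 0.66 against 0.49 and 0.44 TPM, with a difference of -0.18 (limma adjusted p = 0.0223) that did not reach the size required. At 40 min alone Saal1 was called lower (-0.25, limma adjusted p = 0.025, and -0.20 with an adjusted p = 0.0361 after centring). Ncoa1, Rpia and Map4k5 lay between -0.06 and -0.03.

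The shift was also read by properties of the genes. Genes were ranked by their change from mitosis to 40 min in CCNA-GFP cells, another ES line of the series, and split into 5 equal groups (9574 genes). At 20 min the medians ran from -0.045 in the least to -0.10 in the most reactivated group. In replicate 1 they ran from -0.055 to -0.19, and in replicate 2 from -0.036 to -0.015. At 40 min the groups lay between -0.022 and -0.067. Lower calls numbered 4, 13, 14, 28 and 26 from the least to the most reactivated group, and 2, 5, 7, 8 and 6 after centring. Split by mean TPM instead, from the lowest to the highest group, the 20-min medians ran from -0.030 to -0.10, from -0.053 to -0.15 in replicate 1 and from -0.0064 to -0.055 in replicate 2. Lower calls by mean TPM numbered 6, 8, 24, 26 and 23, and 1, 4, 5, 12 and 6 after centring. The constant added to TPM makes differences of low genes smaller, and its part in both splits was not tested. By gene length, from the shortest to the longest group, they numbered 31, 19, 19, 17 and 1, and higher calls numbered 7, 2, 3, 1 and 0. After centring the lower calls by length were 5, 7, 9, 6 and 1 and the higher calls 12, 3, 4, 3 and 0. Read numbers of a pre-mRNA also rise with its length, and the part of this in the counts was not tested.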

How the data were processed

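Pre-mRNA was measured by stranded, ribo-depleted paired-end RNA-seq. The authors aligned reads with STAR to mm10 and, with RSEM on Gencode vM12 plus an added pre-mRNA isoform per gene, deposited TPM of that isoform for curated RefSeq genes. Per the methods these genes reached 0.5 TPM in asynchronous cells or in more than 1 sample after release, so a gene can lie below this level in the libraries used here. Versions of STAR and RSEM are not given in the sources used here, nor is whether counting used strand. The authors' own test ran on read counts, which were not used here. Low TPM are whole multiples of 1 step per library (tolerance 0.01), whose size differs between libraries for a reason the sources do not name. The headers of the asynchronous columns are garbled, and their stage was read from the matching column names of the study's supplementary dataset.

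From the deposited TPM, log2(TPM + 1) of 10237 genes in 36 libraries was fitted with limma 3.58.1 (R 4.3.3), with arm by stage as groups, pairs (stage and replicate) entered as blocks, and p-values adjusted over all genes by Benjamini-Hochberg. Differences on this scale understate the change of low genes. Fits were repeated after subtracting each library's median (centred). The script was tested on simulated data. Replicate numbers paired the samples: deviations from group means correlated above 0.1 in 18 of 18 pairs (0.51 to 0.88, with 0.81 at 20 min and 0.79 at 40 min, each over both replicates). At stages with 2 replicates the deviations mirror each other and both pairs give the same value, so the 18 are not separate. Tables and figures used Python 3.11.15, numpy 2.4.6, pandas 2.3.3 and matplotlib 3.10.9. Gene positions are from Gencode vM21 on GRCm38 and cover 10209 of 10237 genes.

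Genes were named by a rule: Ctcf, the study's 5 examples, up to 12 lower and 12 higher genes by mean difference among those called with 1 sign in 4 of 4 pairs and a mean of at least 1 TPM (74 lower and 8 higher were eligible), and called members of the gene lists. Further genes were chosen after their values were seen. The libraries, lists and rules were chosen with earlier results of these data known. Alternatives covered scaling, the pairing, the libraries fitted, the constant, a TPM minimum, a stricter p of 0.05 and each replicate left out; 4 that combine centring with another choice were added after seeing the data.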

Additional observations from a re-analysis of the deposited data

Results flagged for a closer look

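The difference between arms over 20 and 40 min was not the same as at other stages for some genes, by limma's test of the difference between stages. Without centring it differed from that at 50 to 60 min in 123 genes and from that in asynchronous cells in 354 genes. After centring these counts were 131 and 325. The early difference lay below the asynchronous one in 249 of the 354 genes without centring, and in 118 of the 325 after it. For the named genes called early, the early difference minus that at 50 to 60 min was 0.35 for Lrrc59, 0.32 for Cab39, 0.33 for Psmd6 and 0.54 for Rbm17, all lower with IAA and more so later. It was -0.46 for Lsm11, -0.53 for Mrps16, -0.44 for Vgf and -0.36 for Prkag1, all higher with IAA and more so later. Il17c went the other way, with 0.62. Against asynchronous cells it was -0.68 for Gys1, -0.39 for Lsm11, -0.37 for Eef2kmt and -0.64 for Prkag1. In these genes the early rise was smaller than that in asynchronous cells. Rpl36 had 0.53, since it was lower still in asynchronous cells, and Rps12 had -0.62, since it was lower at 20 to 40 min and at 0.07 in asynchronous cells. The values of these genes are those without centring. After centring, Rps12 and Eef2kmt were not called in the test against asynchronous cells.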

How the results depend on the processing

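The count of genes lower over 20 and 40 min was 87. It was 28 after centring, 35 with libraries scaled to the same total, 7 after division by the library step, 255 with a constant of 0.1 TPM and 49 at an adjusted p under 0.05. Leaving out a replicate gave 0 to 626. The count of higher genes was 13, against 22, 29, 6, 21 and 7 in the same order, and 2 to 14 with a replicate left out. Without the replicate block, and with only the 8 libraries in the fit, both counts were 0. In the combinations added after seeing the data, the centred fit without the block gave 4 lower and 5 higher genes and the centred fit of the 8 libraries 7 and 8, and with a replicate left out the centred fit gave 3 to 8 and 3 to 7.

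At 20 min the counts of 0 became 3 lower and 5 higher with the same total and 12 lower with a constant of 0.1 TPM, and leaving out a replicate gave 0 to 46 lower. At 40 min the 76 lower genes became 9 after division by the library step, 0 without the block and with only the 8 libraries, 49 at an adjusted p under 0.05, and 0 to 16 with a replicate left out. The 13 higher genes became 24 after centring, 7 after division by the library step, 0 without the block and with only the 8 libraries, and 3 with either replicate left out. The centred fit without the block gave 5 lower and 6 higher, that of the 8 libraries 5 and 5, and those with a replicate left out 3 to 8 and 2 to 3. The cause of these changes was not tested. Counts with a replicate left out rest on a single library per arm and early time, with the spread taken from the other stages.

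The median of the pairs over both times, -0.055, became 0.0040 after centring, -0.0049 with the same total and -0.092 with a constant of 0.1 TPM. At 20 min -0.061 became 0.0072 and -0.0033 on the first 2 of these. At 40 min -0.049 became 0.00079 and -0.0065, and -0.013 after division by the library step. Genes near 0 changed sign: Ctcf became 0.056 after centring, 0.079 with the same total and 0.037 after division by the library step, Ncoa1 became 0.027 and 0.017 in the first 2 of these, and Rpia became 0.014 after centring. With a replicate left out Ctcf lay between -0.049 and 0.044 and Ncoa1 between -0.070 and 0.0056. Of 24 named genes called, 17 kept the call after centring, 18 with the same total, 9 after division by the library step, 22 with a constant of 0.1 TPM, 24 with a mean of at least 1 TPM, 15 at an adjusted p under 0.05, 1 without replicate 1, 19 without replicate 2, and 0 without the block or with only the 8 libraries, where the differences themselves are the same by construction. Without replicate 1 the median difference of the 16 lower ones was -0.30, against -0.37, in genes chosen with that replicate included. TPM keep no read counts, so no limit set by depth can be given, and with 2 replicates per arm a difference that was not called is not shown to be absent.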
